A study of Mus with 21 samples.

Results

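Mouse skin wounds filled with an acidic or an alkaline hydrogel loaded with bFGF were compared on Day 4 by RNA sequencing of the wound tissue. The comparison, 6.4/bFGF against 8.4/bFGF, takes 3 libraries of each group, 6 of the 21 libraries of the series, each assigned by its group label. All 18806 genes of the deposited count tables entered it. Every library came from skin of wild-type C57BL/6 mice, which the study's methods give as female and 8 weeks old, with round full-thickness punch wounds of 8 mm in diameter on both sides of the back. The wounds held scaffolds of gelatin methacryloyl (GelMA), a gelatin that sets under light, which had been brought to pH 6.4 or to pH 8.4 and mixed with bFGF. Strain, wound, scaffold and growth factor are thus shared by all 6 libraries, and the pH of the gel as it was prepared is what differs. The animal and the side of the back behind each library are not given in the sources used here. The labels call the libraries of a group biological replicates, and the p-values below measure the spread between them. Values from 7.4/bFGF, from 6.4/aFGF and 8.4/aFGF, where aFGF took the place of bFGF, and from control wounds, which had no hydrogel, are given beside some results, with 3 libraries per group.

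bFGF, the product of Fgf2, is a heparin-binding growth factor that signals through FGF receptors and the ERK kinases and makes fibroblasts, endothelial cells and keratinocytes divide and migrate. Intact skin is acidic at its surface, while an open wound drifts towards the more alkaline pH of tissue fluid. Cells sense protons outside them through G protein-coupled receptors and acid-sensitive channels, and they hold their own pH with carbonic anhydrases, ion exchangers and lactate transporters. Early wounds hold neutrophils and monocytes, fibroblasts that lay down collagen, sprouting vessels and an epidermal edge that moves over the wound bed.

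The 6 libraries had 34362558 to 37548205 counts each. Levels are given as CPM, the usual scaling of counts to library size, here with TMM normalization over the 21 libraries, in the order of replicates 1, 2 and 3, and differences as log2 fold changes, where a value above 0 is higher in 6.4/bFGF. Genes of skin were abundant in every library, with the basal keratin Krt14 at 2280.3, 2117 and 1862 CPM in 6.4/bFGF and at 2955, 2026 and 1947 CPM in 8.4/bFGF. Both 8.4/bFGF replicates 1 and 2 stood apart in other tissues' genes. Replicate 1 had a summed skeletal muscle level of 23430 CPM, against 3230 to 6821 CPM in the other 5 libraries, and the highest adipocyte level. Replicate 2 carried ovary genes, with 95 genes high in it alone among the 21 libraries, against 1 such gene in 8.4/bFGF replicate 1 and 0 in the other 4 libraries. Where a log2 fold change printed with its SE turned in sign or shrank by over 1.5 times without 8.4/bFGF replicate 1 or 2, that value is given too. Shrinking without 1 of the other libraries is given for some genes only. List medians are given with their lowest and highest values when 1 of the 6 libraries was left out. In tissue of this kind, fewer cells of a type and less RNA per cell cannot be told apart.

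Of the 18806 genes, 15022 passed the filter on low counts and entered edgeR's quasi-likelihood test. In it 0 genes (0%) passed an adjusted p of 0.05 with a log2 fold change beyond 0.58, and the smallest adjusted p was 0.651. Before adjustment, 1099 genes (7.32%) had a p under 0.05, of which 406 (2.70%) were higher and 693 (4.61%) lower in 6.4/bFGF. All 3 libraries of 6.4/bFGF lay above all 3 of 8.4/bFGF in 913 genes (6.08%) and below them in 1022 (6.80%), and the log2 fold change was below 0 in 7521 genes (50.1%) and above 0 in 7501 (49.9%). DESeq2 with its default settings called 21 of 15960 genes, all of them lower in 6.4/bFGF (0.132%), and 0 higher (0%). Since no gene passed the edgeR test, the values below describe these libraries, and the adjusted edgeR p of every gene named here and tested ran from 0.651 to 0.994. The SE beside a log2 fold change is that of the edgeR fit. Counts of list members with an unadjusted p under 0.05, or with groups that did not overlap, are to be read against these shares of all genes. Many genes named from the lists were picked by p in this comparison. For them, groups that did not overlap are no further support. The plot of fold change against p shows the skeletal muscle and adipocyte genes to the left of 0 and a few ovary genes far to the left.

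**Figure D1:**
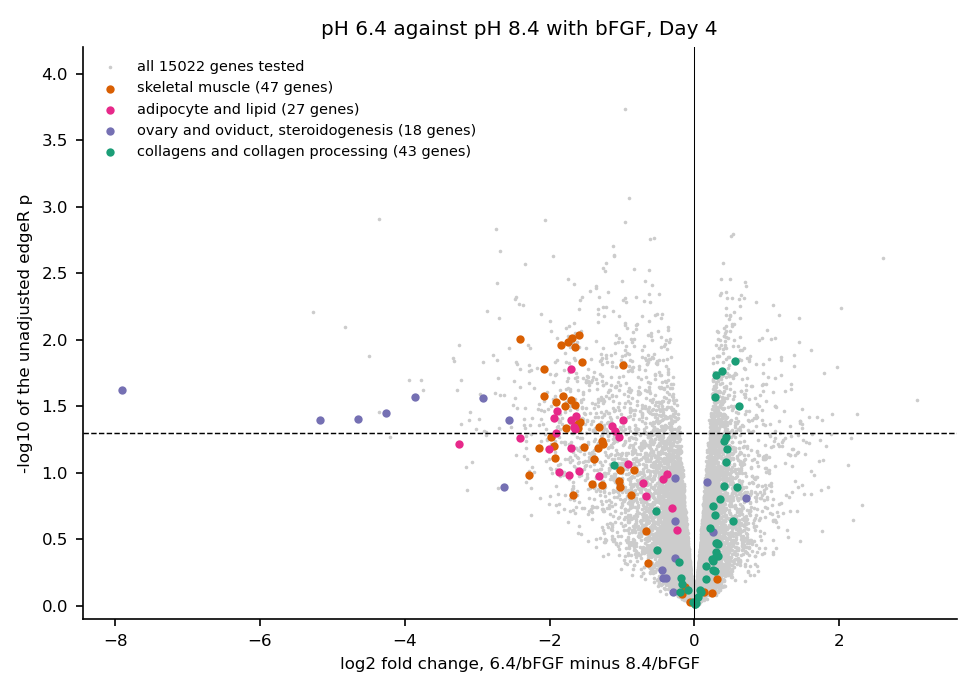
Log2 fold change between 6.4/bFGF and 8.4/bFGF (horizontal axis, above 0 is higher in 6.4/bFGF) and -log10 of the unadjusted edgeR p (vertical axis), 1 point per gene for 15022 genes, with 4 gene lists in colour. The dashed line marks an unadjusted p of 0.05, and most muscle and adipocyte genes lie between -1 and -2.5 while the collagen genes lie mostly between 0 and 0.62.

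The 10 genes of smallest p on the lower side were Tacc2, Lrrc2, Pkhd1l1, Fndc5, Smoc2, Ppargc1a, Nrip1, Mustn1, Tmem8b and Dpysl4, and in each of them all 3 libraries of 6.4/bFGF lay below all 3 of 8.4/bFGF. They were picked by p in this comparison, so the lack of overlap is no further support. Pkhd1l1 (8, 4 and 7 counts), Dpysl4 (5, 6 and 6) and Ppargc1a (13, 8 and 6) had few counts in 6.4/bFGF. These 3 genes passed the filter on low counts largely through 8.4/bFGF. Tacc2, which encodes a coiled-coil protein of the centrosome, had the smallest p of all genes and was at 63.4, 62.3 and 50.3 CPM in 6.4/bFGF and at 116, 124 and 102 CPM in 8.4/bFGF, a log2 fold change of -0.96 (SE 0.13). Leaving out any 1 library kept the value between -1.04 and -0.86. In control wounds Tacc2 was at 62.2 ± 14.0 CPM (SD, n = 3), close to 6.4/bFGF, while 7.4/bFGF spread over 309, 165 and 21.7 CPM. DESeq2 gave Tacc2 an adjusted p of 2.86e-05, and over the alternatives tried, DESeq2 included, it ran from 5.92e-06 to 0.969. Ppargc1a, the coactivator PGC-1 alpha that switches on mitochondrial genes, was at 0.368, 0.222 and 0.169 CPM in 6.4/bFGF and at 2.58, 1.21 and 1.30 CPM in 8.4/bFGF, a log2 fold change of -2.73 (SE 0.53). Fndc5, the precursor of the muscle peptide irisin, was at 1.10, 1.53 and 1.46 CPM in 6.4/bFGF and at 6.75, 7.29 and 3.02 CPM in 8.4/bFGF, with a log2 fold change of -2.06 (SE 0.39). Ppargc1a was under 1 CPM in all 3 acidic libraries and above it in all 3 alkaline ones, while Fndc5 was above 1 CPM in every library of both groups. Nrip1, a corepressor of metabolic genes, was at 39.0, 34.7 and 37.0 CPM in 6.4/bFGF and at 59.6, 53.8 and 48.7 CPM in 8.4/bFGF (log2 fold change -0.55, SE 0.11). For Mustn1, a small nuclear protein of muscle and bone, the levels were 34.0, 37.2 and 37.1 CPM in 6.4/bFGF against 60.7, 46.4 and 58.0 CPM in 8.4/bFGF (log2 fold change -0.61, SE 0.12). Smoc2, a secreted calcium-binding matrix protein, was at 54.5, 51.4 and 35.7 CPM in 6.4/bFGF and at 105, 83.0 and 86.3 CPM in 8.4/bFGF, which gave a log2 fold change of -0.95 (SE 0.18).

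Lrrc2, a leucine-rich repeat protein of heart and muscle mitochondria, was at 5.18, 4.53 and 5.06 CPM in 6.4/bFGF and at 9.52, 9.38 and 8.72 CPM in 8.4/bFGF (log2 fold change -0.91, SE 0.16). Its replicates lay close together in both groups. Pkhd1l1, a fibrocystin-like membrane protein, was at 0.226, 0.111 and 0.197 CPM in 6.4/bFGF and at 1.37, 7.80 and 1.97 CPM in 8.4/bFGF, where replicate 2 of 8.4/bFGF, the library with ovary genes, was highest. Without that library its log2 fold change was -3.19, against -4.36 with it. Dpysl4 was under 2 CPM in every library, at 0.141, 0.167 and 0.169 CPM in 6.4/bFGF and at 0.765, 1.68 and 0.665 CPM in 8.4/bFGF (log2 fold change -2.68, SE 0.56). Tmem8b was at 2.04, 2.42 and 2.70 CPM in 6.4/bFGF and at 5.80, 5.14 and 4.57 CPM in 8.4/bFGF (log2 fold change -1.12, SE 0.23). Both were higher in each alkaline library than in any acidic one.

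DESeq2's 21 calls hold 7 of these 10 genes, Tacc2, Lrrc2, Pkhd1l1, Fndc5, Smoc2, Ppargc1a and Tmem8b. Myh11 and Car14, described with their lists below, are called too. Of the others, Agt, Ankrd23, Myo18b, Coq8a, Cldn22, Mss51, Rbfox1, Tmtc1, Upk1b and Kcnc4, were chosen for naming after their values were seen. In all 21 genes the groups did not overlap, where 6.80% of all genes tested had 6.4/bFGF wholly below 8.4/bFGF. They were picked by p in this comparison, so that is no further support for them. None of the 21 is in the skeletal muscle list, which does not set them apart from muscle. In 7.4/bFGF, with summed muscle levels of 22456, 23716 and 525 CPM, Tacc2 was at 309, 165 and 21.7 CPM. Lrrc2 was at 18.5, 17.98 and 0.429 CPM there, while Myh11 did not fall, at 33.6, 33.9 and 38.1 CPM. Within 8.4/bFGF, Tacc2 was not highest in replicate 1, the library with the most muscle. How far muscle content entered the 21 calls was not tested. Some of the 21 are known from striated muscle. Ankrd23, a stretch-responsive ankyrin protein, was at 124, 114 and 94.4 CPM in 6.4/bFGF and at 326, 185 and 204 CPM in 8.4/bFGF (log2 fold change -1.11, SE 0.24). Myo18b, an unconventional myosin needed for sarcomere assembly, was at 10.6, 9.31 and 7.92 CPM in 6.4/bFGF and at 52.2, 18.9 and 21.7 CPM in 8.4/bFGF (log2 fold change -1.74, SE 0.40). In both genes 8.4/bFGF replicate 1 was the highest library, and replicates 2 and 3 were still above all 3 libraries of 6.4/bFGF. Without replicate 1 the log2 fold changes were -0.81 and -1.13. Agt, which encodes angiotensinogen, was at 6.22, 2.11 and 3.46 CPM in 6.4/bFGF and at 37.1, 32.3 and 8.42 CPM in 8.4/bFGF (log2 fold change -2.72, SE 0.63). Coq8a, a kinase-like protein of coenzyme Q synthesis, was at 34.5, 25.5 and 30.1 CPM in 6.4/bFGF and at 85.0, 63.9 and 45.8 CPM in 8.4/bFGF (log2 fold change -1.11, SE 0.24). The number of DESeq2 calls depended on single libraries of both groups. Without replicate 1, 2 or 3 of 6.4/bFGF it was 597, 10 or 22, and without replicate 1, 2 or 3 of 8.4/bFGF it was 38, 160 or 195. Of the 597 genes, 218 were higher and 379 lower in 6.4/bFGF.

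On the higher side, the 10 genes of smallest p were Oaf, Arl4c, Htr6, Chpf2, Tubb2a, Dok1, Coq10b, Srxn1, 1810055G02Rik and Tpbg, most of them with small folds and replicates close together. Being picked by p as well, they gain no support from groups that did not overlap. Htr6, with 6, 8 and 7 counts in 8.4/bFGF, passed the filter on low counts largely through 6.4/bFGF. Oaf was at 118, 109.9 and 102 CPM in 6.4/bFGF and at 68.7, 78.2 and 79.6 CPM in 8.4/bFGF, a log2 fold change of 0.54 (SE 0.11). Arl4c, a small GTPase of membrane traffic and cell spreading, was at 129.9, 134 and 142 CPM in 6.4/bFGF and at 98.4, 86.6 and 101 CPM in 8.4/bFGF (log2 fold change 0.50, SE 0.10). In neither gene did the groups overlap. Control wounds had 142 ± 70.2 CPM (SD, n = 3) of Arl4c, a spread that covered both groups. Chpf2, an enzyme of chondroitin sulfate synthesis, was at 132, 129 and 129 CPM in 6.4/bFGF and at 96.6, 99.6 and 101 CPM in 8.4/bFGF (log2 fold change 0.39, SE 0.085). The beta-tubulin Tubb2a was at 115, 124 and 114 CPM in 6.4/bFGF and at 91.3, 90.6 and 90.7 CPM in 8.4/bFGF (log2 fold change 0.37, SE 0.085). In both genes the replicates lay close together in each group, and the groups did not overlap. Srxn1, which encodes sulfiredoxin and is a target of the oxidative stress factor NRF2, was at 69.4, 84.6 and 103 CPM in 6.4/bFGF and at 48.5, 59.6 and 47.9 CPM in 8.4/bFGF (log2 fold change 0.72, SE 0.17). Htr6, a serotonin receptor, had the largest fold of the 10 at low levels, 0.538, 1.39 and 1.55 CPM in 6.4/bFGF against 0.158, 0.207 and 0.194 CPM in 8.4/bFGF, with a log2 fold change of 2.61 (SE 0.56). The other 4 were Dok1 (0.49), an adaptor of tyrosine kinases, Coq10b (0.70), a coenzyme Q-binding protein, 1810055G02Rik (0.44) and the membrane glycoprotein Tpbg (0.37), given as log2 fold changes.

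Skeletal muscle genes were lower in 6.4/bFGF as a group, and much of the size came from 1 library. Of 47 muscle genes tested, 44 had a log2 fold change below 0, 21 had an unadjusted p under 0.05, all lower (against 4.61% of all genes tested), and 14 had 6.4/bFGF wholly below 8.4/bFGF (against 6.80%). Their median log2 fold change was -1.58, against -0.000428 over all genes tested. The summed level of the list was 4570.0, 3230.4 and 4270.5 CPM in 6.4/bFGF and 23429.9, 4821 and 6821 CPM in 8.4/bFGF, so the groups did not overlap, and replicate 1 of 8.4/bFGF was far above the rest. Without that replicate the median was -0.41 and 12 genes had an unadjusted p under 0.05, while without 8.4/bFGF replicate 2 the median was -1.92 with 36 genes. The level of the same list varied more widely elsewhere, with 22456, 23716 and 525 CPM in 7.4/bFGF and 4385, 5565 and 13706 CPM in control wounds. How much muscle each sample held, as a part of these values, was not tested.

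Among the muscle genes, Acta1, the actin of the thin filament, was at 1055, 774 and 1115 CPM in 6.4/bFGF and at 4693, 1087 and 1544 CPM in 8.4/bFGF, a log2 fold change of -1.32 (SE 0.54, and -0.42 without 8.4/bFGF replicate 1). Its replicate 2 of 8.4/bFGF lay within the range of 6.4/bFGF. Myh2, the myosin of fast oxidative fibres, was at 23.5, 17.1 and 15.5 CPM in 6.4/bFGF and at 212, 36.8 and 47.6 CPM in 8.4/bFGF (log2 fold change -2.40, SE 0.68, and -1.17 without 8.4/bFGF replicate 1). Atp2a1, the calcium pump of fast fibres, was at 351, 227 and 342 CPM in 6.4/bFGF and at 2242, 388 and 594 CPM in 8.4/bFGF (log2 fold change -1.81, SE 0.64, and -0.68 without 8.4/bFGF replicate 1). In Myh2 and Atp2a1 every acidic library was below every alkaline one. Ryr1, the calcium release channel, was at 77.6, 62.1 and 30.7 CPM in 6.4/bFGF and at 269.9, 115 and 127 CPM in 8.4/bFGF (log2 fold change -1.59, SE 0.44). Neb, the nebulin that sets thin filament length, was at 80.9, 57.5 and 31.6 CPM in 6.4/bFGF and at 320.3, 105 and 143 CPM in 8.4/bFGF (log2 fold change -1.74, SE 0.50). Mybpc1, a myosin-binding protein, had 74.8, 54.5 and 38.7 CPM in 6.4/bFGF against 316, 95.4 and 129.9 CPM in 8.4/bFGF (log2 fold change -1.69, SE 0.48). In each of these 3 genes all libraries of 6.4/bFGF lay below those of 8.4/bFGF, and the log2 fold changes without 8.4/bFGF replicate 1 were -1.09, -1.13 and -1.01 in turn.

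**Figure D2:**
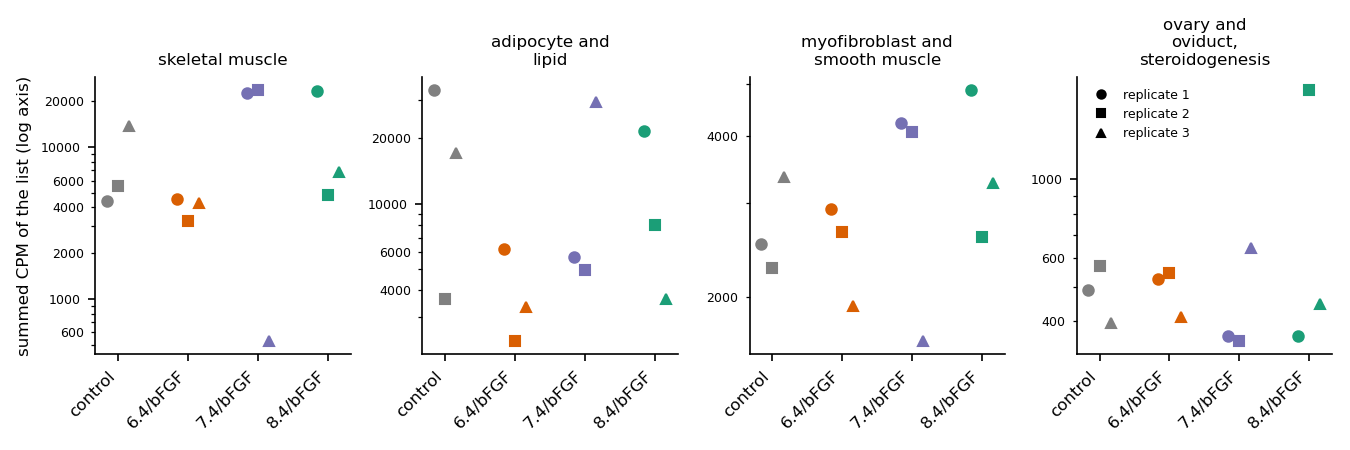
Summed CPM of 4 gene lists (vertical axis, log scale) in each library of the control wounds, 6.4/bFGF, 7.4/bFGF and 8.4/bFGF, with circles, squares and triangles for replicates 1, 2 and 3. Muscle sums of 6.4/bFGF lie at 3230 to 4570 CPM, below the 4821 to 23430 CPM of 8.4/bFGF, and the ovary sum of 8.4/bFGF replicate 2 lies above all others shown.

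Fat genes followed the same direction with overlapping groups. All 27 adipocyte and lipid synthesis genes tested had a log2 fold change below 0, where 50.1% of all genes did, 10 had an unadjusted p under 0.05 against 4.61% of all genes, and the median was -1.64, from -2.14 without 6.4/bFGF replicate 1 to -0.63 without 8.4/bFGF replicate 1. The groups were separate in 0 of them. The summed level was 6174, 2329 and 3369 CPM in 6.4/bFGF and 21583, 8020.1 and 3642 CPM in 8.4/bFGF. Plin4, which coats lipid droplets, was at 85.9, 31.4 and 57.7 CPM in 6.4/bFGF and at 240.4, 253 and 73.6 CPM in 8.4/bFGF (log2 fold change -1.70, SE 0.54). Lpl, the lipase that takes fatty acids up from lipoproteins, was at 321, 94.6 and 146 CPM in 6.4/bFGF and at 1045, 454 and 247 CPM in 8.4/bFGF (log2 fold change -1.64, SE 0.63, and -0.91 without 8.4/bFGF replicate 1). In both, replicate 1 of 6.4/bFGF was above replicate 3 of 8.4/bFGF, and the same was found in the 3 genes that follow. Lep, which encodes leptin, was at 18.9, 4.78 and 15.7 CPM in 6.4/bFGF and at 88.6, 43.6 and 14.8 CPM in 8.4/bFGF (log2 fold change -1.90, SE 0.72, and -1.15 without 8.4/bFGF replicate 1). Pparg, the master regulator of fat cells, was at 15.5, 7.59 and 10.3 CPM in 6.4/bFGF and at 31.4, 21.7 and 12.6 CPM in 8.4/bFGF (log2 fold change -0.98, SE 0.39, and -0.63 without 8.4/bFGF replicate 1). Acaca, the first enzyme of fatty acid synthesis, had 60.1, 41.1 and 41.1 CPM in 6.4/bFGF against 399, 101 and 41.8 CPM in 8.4/bFGF (log2 fold change -1.93, SE 0.76, and -0.59 without 8.4/bFGF replicate 1). Without 8.4/bFGF replicate 1, 1 gene of the list had an unadjusted p under 0.05. Adipocyte sums of 7.4/bFGF were 5668, 4981 and 29417 CPM and those of control wounds 33479, 3636 and 17119.7 CPM.

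Most genes of smooth muscle and myofibroblasts, the contractile cells of vessel walls and of granulation tissue, had log2 fold changes below 0, 16 of 20 tested. An unadjusted p under 0.05 was found for 7 on the lower side, against 4.61% of all genes, and 0 on the higher side, 7 had 6.4/bFGF wholly below 8.4/bFGF, against 6.80%, and the median was -0.55. That median ran from -0.81 without 6.4/bFGF replicate 1 to -0.29 without 6.4/bFGF replicate 3 and was -0.33 without 8.4/bFGF replicate 1, where 4 genes had an unadjusted p under 0.05. Myh11, the heavy chain of smooth muscle myosin and one of DESeq2's calls, was at 39.4, 34.8 and 22.3 CPM in 6.4/bFGF and at 88.3, 82.3 and 53.9 CPM in 8.4/bFGF, a log2 fold change of -1.22 (SE 0.27). Leaving out any library kept Myh11 between -1.41 and -1.01. In 7.4/bFGF it was at 35.2 ± 2.55 CPM (SD, n = 3) and in control wounds at 41.3 ± 7.51 CPM (SD, n = 3), so that 8.4/bFGF was the high group of the 4. Cnn1, a calponin of smooth muscle, was at 7.50, 4.67 and 4.47 CPM in 6.4/bFGF and at 35.2, 16.0 and 8.09 CPM in 8.4/bFGF (log2 fold change -1.83, SE 0.53, and -1.12 without 8.4/bFGF replicate 1). For Synpo2, which binds actin bundles, the libraries were at 21.8, 15.5 and 10.4 CPM in 6.4/bFGF against 60.6, 25.8 and 30.2 CPM in 8.4/bFGF (log2 fold change -1.29, SE 0.40, and -0.81 without 8.4/bFGF replicate 1). Des, the intermediate filament desmin, which skeletal muscle shares, was at 419, 373 and 360.3 CPM in 6.4/bFGF and at 1133, 469.9 and 677 CPM in 8.4/bFGF (log2 fold change -0.99, SE 0.31, and -0.58 without 8.4/bFGF replicate 1). All 3 had their highest level in 8.4/bFGF replicate 1 and no overlap between the groups. Acta2, the alpha smooth muscle actin used as the marker of myofibroblasts, overlapped between the groups at 311, 345 and 159 CPM in 6.4/bFGF and at 261, 256 and 318 CPM in 8.4/bFGF. Its log2 fold change was -0.036, with a 95% interval of -0.71 to 0.63, so a change of either sign within these limits is compatible with the data. Tpm1, a tropomyosin that skeletal muscle also uses, was at 419, 373 and 329 CPM in 6.4/bFGF and at 1284, 347 and 458 CPM in 8.4/bFGF (log2 fold change -0.90, SE 0.47, and -0.11 without 8.4/bFGF replicate 1), and 8.4/bFGF replicate 1 alone stood above the rest.

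Genes of collagens and collagen processing leaned to small positive log2 fold changes, 34 of 43 against 49.9% of all genes, and the most abundant collagen chains overlapped. Of the 43 genes tested, 5 had an unadjusted p under 0.05 on the higher side, against 2.70% of all genes, and 0 on the lower side, and 7 had 6.4/bFGF wholly above 8.4/bFGF, against 6.08%. The 4 of smallest p are enzymes that modify or cross-link collagen. P4ha2, a prolyl hydroxylase that stabilises the triple helix, was at 149.7, 193 and 158 CPM in 6.4/bFGF and at 87.8, 120.2 and 129 CPM in 8.4/bFGF (log2 fold change 0.57, SE 0.17). Plod3, a lysyl hydroxylase, was at 241, 292 and 262 CPM in 6.4/bFGF and at 183, 218 and 206 CPM in 8.4/bFGF (log2 fold change 0.39, SE 0.12). Plod1, its relative, was at 277, 251 and 248 CPM in 6.4/bFGF and at 211, 205 and 218 CPM in 8.4/bFGF (log2 fold change 0.29, SE 0.10). The lysyl oxidase Loxl3, which starts the cross-links, was at 128, 136 and 124 CPM in 6.4/bFGF and at 98.6, 113 and 103 CPM in 8.4/bFGF (log2 fold change 0.30, SE 0.098). The groups did not overlap in these 4 genes, which is no further support since they were picked by p, and every fold was below 0.58 on the log2 scale. Col1a1, the main chain of type I collagen, was at 22174, 20309 and 10876 CPM in 6.4/bFGF and at 9997, 11971 and 20420.0 CPM in 8.4/bFGF, where replicates 1 and 2 of 6.4/bFGF and replicate 3 of 8.4/bFGF were high and the other 3 libraries low. Col3a1, the early wound collagen, had the same 3 high libraries, with 28557, 29372 and 17871 CPM in 6.4/bFGF against 17336, 17909 and 28345 CPM in 8.4/bFGF. Their log2 fold changes were 0.33 (SE 0.39, and 0.14 without 8.4/bFGF replicate 1) and 0.25 (SE 0.32, and 0.13 without 8.4/bFGF replicate 1, and 0.16 without 8.4/bFGF replicate 2). The median of the list was 0.27 with all 6 libraries, and with 1 left out it ran from 0.11 without 6.4/bFGF replicate 1 to 0.40 without 6.4/bFGF replicate 3.

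Genes of fibroblasts and their matrix had 16 of 23 log2 fold changes above 0, where 49.9% of all genes did. At an unadjusted p under 0.05, 2 were higher and 0 lower (2.70% and 4.61% of all genes). The median was 0.18, from 0.019 without 6.4/bFGF replicate 1 to 0.34 without 8.4/bFGF replicate 3. Thy1, a surface protein of fibroblasts, was at 269, 289.5 and 239.9 CPM in 6.4/bFGF and at 207, 175 and 239 CPM in 8.4/bFGF (log2 fold change 0.36, SE 0.15), with a narrow gap between the groups. Vim, the intermediate filament vimentin, was at 2439, 2829.5 and 2144 CPM in 6.4/bFGF and at 1593, 1674 and 2146 CPM in 8.4/bFGF (log2 fold change 0.45, SE 0.19), with 8.4/bFGF replicate 3 just inside the range of 6.4/bFGF. Tnc, the tenascin of healing tissue, was at 2984, 3016 and 3926 CPM in 6.4/bFGF and at 1934, 3269 and 2546 CPM in 8.4/bFGF (log2 fold change 0.35, SE 0.24, and 0.19 without 8.4/bFGF replicate 1). Sparc, a collagen-binding glycoprotein, was at 8532, 7501 and 4278 CPM in 6.4/bFGF and at 4232, 4951 and 7966 CPM in 8.4/bFGF (log2 fold change 0.24, SE 0.35, and 0.068 without 8.4/bFGF replicate 1), with the same 3 libraries high as for Col1a1.

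In the TGF-beta system, which drives matrix production, 2 of 20 genes were higher and 1 lower at an unadjusted p under 0.05, against 2.70% and 4.61% of all genes. Tgfb1, the main ligand, was at 175, 195 and 189 CPM in 6.4/bFGF and at 131, 133 and 157 CPM in 8.4/bFGF, a log2 fold change of 0.40 (SE 0.11), and the groups did not overlap. Ltbp1, which stores the latent ligand in the matrix, went the other way at 36.3, 30.4 and 25.7 CPM in 6.4/bFGF and at 61.5, 40.3 and 39.3 CPM in 8.4/bFGF (log2 fold change -0.61, SE 0.21, and -0.37 without 8.4/bFGF replicate 1), while Ltbp2, of the same family, was at 175, 169 and 256 CPM in 6.4/bFGF and at 125, 126 and 164 CPM in 8.4/bFGF (log2 fold change 0.53, SE 0.20).

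Matrix metalloproteinases, which clear collagen for cell migration, gave 1 gene higher and 2 lower of 22 at an unadjusted p under 0.05, against 2.70% and 4.61% of all genes. The abundant gelatinase Mmp2 was at 1396, 1012 and 721 CPM in 6.4/bFGF and at 909, 609 and 1457 CPM in 8.4/bFGF and the membrane-bound Mmp14 at 1300.3, 1039 and 699 CPM in 6.4/bFGF and at 685, 687 and 1285 CPM in 8.4/bFGF, both with overlapping groups. Timp1, an inhibitor, was at 783, 884 and 1887 CPM in 6.4/bFGF and at 370.3, 937 and 529 CPM in 8.4/bFGF (log2 fold change 0.95, SE 0.45). Timp4, an inhibitor known from muscle and fat, was at 0.934, 0.139 and 1.57 CPM in 6.4/bFGF and at 19.5, 4.65 and 2.60 CPM in 8.4/bFGF (log2 fold change -3.33, SE 1.01, and -2.04 without 8.4/bFGF replicate 1), with 8.4/bFGF replicate 1 highest. Mmp19 was at 171, 211 and 216 CPM in 6.4/bFGF and at 146, 177 and 153 CPM in 8.4/bFGF (log2 fold change 0.33, SE 0.14). Mmp16 was at 0.707, 0.584 and 0.506 CPM in 6.4/bFGF and at 1.66, 0.930 and 1.47 CPM in 8.4/bFGF (log2 fold change -1.17, SE 0.41). Timp4 and Mmp16 were lower in every acidic library than in any alkaline one, and Timp1 and Mmp19 overlapped.

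**Figure D3:**
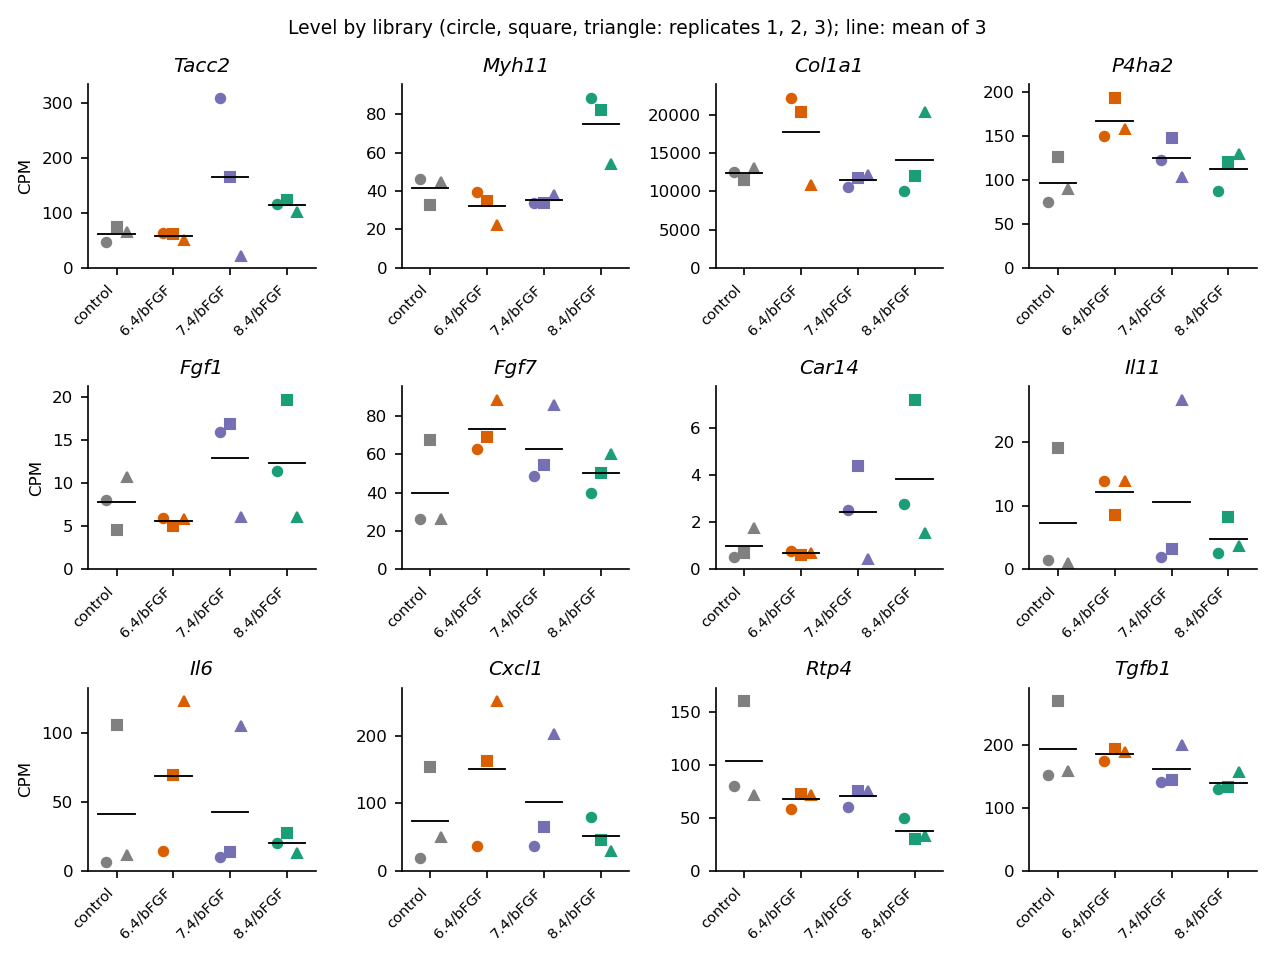
Levels of 12 genes in CPM (vertical axes, each from 0) in every library of the control wounds, 6.4/bFGF, 7.4/bFGF and 8.4/bFGF, with the mean of 3 as a line. Tacc2, Myh11, Car14 and Fgf1 show all 6.4/bFGF libraries below 8.4/bFGF, P4ha2, Fgf7, Il11, Rtp4 and Tgfb1 show them above, and Col1a1, Il6 and Cxcl1 show overlap.

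The FGF genes themselves were split between ligands. Of 18 ligands and receptors tested, 2 were higher and 4 lower at an unadjusted p under 0.05 (2.70% and 4.61% of all genes), with a median of -0.37, from -0.47 without 6.4/bFGF replicate 1 to -0.18 without 6.4/bFGF replicate 2. Without 8.4/bFGF replicate 2 both counts were 0. Fgf7, the keratinocyte growth factor made by fibroblasts, was at 62.8, 69.0 and 88.5 CPM in 6.4/bFGF and at 39.7, 50.5 and 60.3 CPM in 8.4/bFGF (log2 fold change 0.55, SE 0.19). Fgf18, a ligand of mesenchyme, was at 4.07, 6.42 and 5.31 CPM in 6.4/bFGF and at 2.16, 2.76 and 3.88 CPM in 8.4/bFGF (log2 fold change 0.84, SE 0.30). Both were higher in every acidic library than in any alkaline one. Fgf1, the mouse gene for aFGF, was at 6.00, 5.00 and 5.84 CPM in 6.4/bFGF and at 11.3, 19.7 and 6.09 CPM in 8.4/bFGF, a log2 fold change of -1.14 (SE 0.40, and -0.62 without 8.4/bFGF replicate 2), where 8.4/bFGF replicate 3 was barely above 6.4/bFGF. Fgf2, the mouse gene for the growth factor in the gel, was low and overlapped, at 3.82, 2.72 and 4.81 CPM in 6.4/bFGF and at 4.72, 2.89 and 2.99 CPM in 8.4/bFGF, with a log2 fold change of 0.096 and a 95% interval of -0.67 to 0.86. The protein in the gel leaves no counts, so these are transcripts of the mouse's own gene.

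Among the receptors, Fgfr1, the main one of fibroblasts, was at 327, 289 and 241 CPM in 6.4/bFGF and at 251, 206 and 288 CPM in 8.4/bFGF (log2 fold change 0.20, SE 0.17, and 0.096 without 8.4/bFGF replicate 2). Fgfr2, whose epithelial form binds Fgf7, was at 20.7, 7.75 and 9.64 CPM in 6.4/bFGF and at 13.1, 21.1 and 14.5 CPM in 8.4/bFGF (log2 fold change -0.35, SE 0.39, and -0.10 without 8.4/bFGF replicate 2). Both overlapped. Fgfr3 was at 15.7, 12.1 and 12.6 CPM in 6.4/bFGF and at 17.9, 18.8 and 16.1 CPM in 8.4/bFGF (log2 fold change -0.39, SE 0.15), lower in every acidic library by a small margin. Fgfr4 was at 1.75, 0.750 and 2.00 CPM in 6.4/bFGF and at 2.16, 1.01 and 2.38 CPM in 8.4/bFGF, with a log2 fold change of -0.30 (SE 0.51, and -0.17 without 8.4/bFGF replicate 1). Fgfrl1, which binds FGF and lacks the kinase, was at 19.9, 12.3 and 17.1 CPM in 6.4/bFGF and at 34.4, 28.2 and 18.9 CPM in 8.4/bFGF (log2 fold change -0.72, SE 0.27). Receptors and ligands thus had log2 fold changes of both signs.

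Feedback genes that FGF and ERK signalling switch on had 17 of 20 log2 fold changes above 0, where 49.9% of all genes did, with a median of 0.18, from 0.081 without 8.4/bFGF replicate 3 to 0.31 without 8.4/bFGF replicate 1, and 1 gene higher at an unadjusted p under 0.05, against 2.70% of all genes. That gene was Ier3, an early response gene of survival signalling, at 154, 311 and 345 CPM in 6.4/bFGF and at 110.1, 149.8 and 127 CPM in 8.4/bFGF (log2 fold change 1.06, SE 0.30), without overlap. Phlda1 was at 37.1, 54.0 and 79.0 CPM in 6.4/bFGF and at 30.2, 45.9 and 29.0 CPM in 8.4/bFGF (log2 fold change 0.69, SE 0.30). Spred3, an inhibitor of the Ras pathway, was at 10.4, 13.7 and 16.6 CPM in 6.4/bFGF and at 8.81, 10.4 and 11.1 CPM in 8.4/bFGF (log2 fold change 0.43, SE 0.20). Without 8.4/bFGF replicate 2, 5 genes of the list were higher at that p. Immediate early genes, which react to serum and injury within minutes, had a median of 0.32, with 20 of 22 above 0, against 49.9% of all genes. Without 1 library that median ran from -0.0086 without 6.4/bFGF replicate 3 to 0.51 without 6.4/bFGF replicate 1, so its sign rested on 6.4/bFGF replicate 3. Nr4a3, a nuclear receptor, was at 9.85, 21.5 and 23.9 CPM in 6.4/bFGF and at 6.51, 6.23 and 12.8 CPM in 8.4/bFGF (log2 fold change 1.11, SE 0.41), with 6.4/bFGF replicate 1 inside the range of 8.4/bFGF. Junb, a part of the AP-1 factor, was at 384, 629 and 806 CPM in 6.4/bFGF and at 448, 509.7 and 471 CPM in 8.4/bFGF (log2 fold change 0.35, SE 0.26, and from 0.087 to 0.59 with 1 library left out). Apold1, an early response gene of endothelium, was at 20.3, 26.0 and 19.9 CPM in 6.4/bFGF and at 24.8, 15.0 and 29.4 CPM in 8.4/bFGF, with a log2 fold change of -0.065 (SE 0.25, and -0.0080 without 8.4/bFGF replicate 1).

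Genes that sense protons gave no common direction. Of 11 tested, 1 was lower and 0 higher at an unadjusted p under 0.05, against 4.61% and 2.70% of all genes. Trpv1, the capsaicin and acid-gated channel of pain neurons, was at 0.368, 0.0556 and 0.309 CPM in 6.4/bFGF and at 1.29, 1.03 and 0.388 CPM in 8.4/bFGF (log2 fold change -1.88, SE 0.77), in libraries where a count of 3 was worth 0.0799 to 0.0873 CPM. With 13, 2 and 11 counts in 6.4/bFGF, Trpv1 passed the filter on low counts largely through 8.4/bFGF. Kcnk3, an acid-sensitive potassium channel, was at 4.41, 2.83 and 1.01 CPM in 6.4/bFGF and at 7.15, 14.2 and 3.13 CPM in 8.4/bFGF (log2 fold change -1.57, SE 0.68, and -0.89 without 8.4/bFGF replicate 2). The proton-sensing receptor Gpr65, found on leukocytes, was at 17.0, 24.3 and 25.3 CPM in 6.4/bFGF and at 24.2, 10.1 and 21.1 CPM in 8.4/bFGF (log2 fold change 0.27, SE 0.33, and -0.014 without 8.4/bFGF replicate 2). Gpr132 was at 12.8, 31.7 and 40.0 CPM in 6.4/bFGF and at 17.8, 17.4 and 16.6 CPM in 8.4/bFGF (log2 fold change 0.70, SE 0.37). In Gpr132, replicates 2 and 3 of 6.4/bFGF were above 8.4/bFGF and replicate 1 was below it.

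The 53 carbonic anhydrases, exchangers and proton pumps tested had a median of -0.086, and from -0.074 without 6.4/bFGF replicate 3 to 0.015 without 6.4/bFGF replicate 1 with 1 library left out, with 2 higher and 2 lower at an unadjusted p under 0.05, against 2.70% and 4.61% of all genes. Car14, a membrane-bound carbonic anhydrase and one of DESeq2's calls, was at 0.764, 0.611 and 0.702 CPM in 6.4/bFGF and at 2.77, 7.18 and 1.55 CPM in 8.4/bFGF, a log2 fold change of -2.47 (SE 0.60). Even the lowest alkaline library had more Car14 than any acidic one, and 8.4/bFGF replicate 2, the library with ovary genes, was highest. Without that library the log2 fold change was -1.62. Car9, the hypoxia-induced carbonic anhydrase at the cell surface, had the opposite sign and was at 3.28, 5.36 and 6.52 CPM in 6.4/bFGF and at 2.82, 3.28 and 2.91 CPM in 8.4/bFGF (log2 fold change 0.75, SE 0.30). Bsg, the chaperone of the lactate transporters, was at 576, 657 and 691 CPM in 6.4/bFGF and at 476, 521 and 532 CPM in 8.4/bFGF (log2 fold change 0.33, SE 0.13). The groups did not overlap in either gene, though barely for Car9. Car5b, a mitochondrial form, was at 19.5, 9.34 and 10.2 CPM in 6.4/bFGF and at 58.8, 25.3 and 14.1 CPM in 8.4/bFGF (log2 fold change -1.33, SE 0.55, and -0.60 without 8.4/bFGF replicate 1). Car3, which is abundant in muscle and fat, was at 802, 158 and 213 CPM in 6.4/bFGF and at 2333, 806 and 401 CPM in 8.4/bFGF (log2 fold change -1.59, SE 0.83, and -0.62 without 8.4/bFGF replicate 1), both with 8.4/bFGF replicate 1 highest.

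Hypoxia and glycolysis genes leaned to the acidic side, with 34 of 37 log2 fold changes above 0, where 49.9% of all genes were, and a median of 0.34. That median ran from 0.15 without 6.4/bFGF replicate 3 to 0.54 without 6.4/bFGF replicate 1. At an unadjusted p under 0.05, 4 were higher and 2 lower, against 2.70% and 4.61% of all genes. Ndrg1, a stress gene induced by low oxygen, was at 198, 342 and 309 CPM in 6.4/bFGF and at 169, 162 and 207 CPM in 8.4/bFGF (log2 fold change 0.65, SE 0.22). Vegfa, the chief angiogenic factor, was at 113, 228 and 269.7 CPM in 6.4/bFGF and at 100, 189 and 92.3 CPM in 8.4/bFGF (log2 fold change 0.68, SE 0.39). Pkm, the pyruvate kinase of glycolysis, was at 1475, 2216 and 2810.0 CPM in 6.4/bFGF and at 1577, 1874 and 1543 CPM in 8.4/bFGF (log2 fold change 0.38, SE 0.25). For both, replicates 2 and 3 of 6.4/bFGF lay above all alkaline libraries and replicate 1 did not. Hif3a, a HIF subunit that restrains the others, was one of the 2 on the lower side, at 0.764, 0.778 and 0.899 CPM in 6.4/bFGF and at 3.72, 1.06 and 1.63 CPM in 8.4/bFGF (log2 fold change -1.39, SE 0.52, and -0.72 without 8.4/bFGF replicate 1).

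Inflammatory genes divided the acidic group. The cytokine Il6 was at 14.4, 69.3 and 123 CPM in 6.4/bFGF and at 20.4, 27.3 and 12.9 CPM in 8.4/bFGF, a log2 fold change of 1.76 (SE 0.70), with replicate 1 of 6.4/bFGF within the alkaline range and replicates 2 and 3 above it. Lif, of the same cytokine family, was at 15.5, 40.9 and 45.4 CPM in 6.4/bFGF and at 8.20, 19.4 and 12.7 CPM in 8.4/bFGF (log2 fold change 1.33, SE 0.46). Cxcl1, which draws neutrophils, showed 36.7, 163 and 252 CPM in 6.4/bFGF against 79.9, 45.8 and 28.9 CPM in 8.4/bFGF (log2 fold change 1.54, SE 0.68). Il1b, the main inflammasome cytokine, was at 447, 1548 and 942 CPM in 6.4/bFGF and at 266, 645 and 525 CPM in 8.4/bFGF (log2 fold change 1.03, SE 0.49). In each of these 4 genes replicate 1 of 6.4/bFGF was the one that overlapped. Il11, a cytokine of stromal cells, was the exception with no overlap, at 14.0, 8.62 and 14.0 CPM in 6.4/bFGF and at 2.58, 8.22 and 3.60 CPM in 8.4/bFGF (log2 fold change 1.34, SE 0.45). Tnf went the other way, at 12.7, 13.5 and 8.71 CPM in 6.4/bFGF and at 12.6, 26.2 and 24.1 CPM in 8.4/bFGF (log2 fold change -0.85, SE 0.31). Of 27 interleukin 1 family genes and acute cytokines, 4 were higher and 1 lower at an unadjusted p under 0.05 (2.70% and 4.61% of all genes), and the median was 0.28. With 1 library left out it ran from -0.065 without 6.4/bFGF replicate 2 to 0.48 without 6.4/bFGF replicate 1. Without 6.4/bFGF replicate 1 the log2 fold change was 2.25 for Il6 and 2.00 for Cxcl1, with an adjusted edgeR p of 0.283 for both, and without 6.4/bFGF replicate 3 it was 1.04 and 0.95.

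Chemokines had a median of 0.48 over 31 genes, from 0.11 without 6.4/bFGF replicate 3 to 0.68 without 6.4/bFGF replicate 1, with 1 higher and 1 lower at an unadjusted p under 0.05, against 2.70% and 4.61% of all genes. Ccl7, which draws monocytes, was at 62.5, 123 and 159 CPM in 6.4/bFGF and at 68.4, 62.9 and 52.9 CPM in 8.4/bFGF (log2 fold change 0.90, SE 0.32). Ppbp, a platelet chemokine, was at 12.6, 29.7 and 124 CPM in 6.4/bFGF and at 11.3, 22.0 and 11.7 CPM in 8.4/bFGF (log2 fold change 1.88, SE 0.80, and from 0.49 to 2.36 with 1 library left out). Ccl20 was low throughout and lower in the acidic group, at 0.792, 0.472 and 0.534 CPM in 6.4/bFGF and at 0.817, 1.50 and 1.74 CPM in 8.4/bFGF (log2 fold change -1.17, SE 0.46). In the NF-kappa B and TNF pathway, 45 of 50 log2 fold changes were above 0, against 49.9% of all genes, and 3 were higher and 2 lower at an unadjusted p under 0.05, where 2.70% and 4.61% of all genes were. Their median was 0.21, from 0.090 without 6.4/bFGF replicate 2 to 0.38 without 6.4/bFGF replicate 1. Sele, the selectin of inflamed endothelium, was at 13.9, 14.3 and 23.9 CPM in 6.4/bFGF and at 7.75, 10.4 and 9.91 CPM in 8.4/bFGF (log2 fold change 0.89, SE 0.25), without overlap. Ripk3, a kinase of necroptosis, was at 46.2, 56.3 and 63.1 CPM in 6.4/bFGF and at 40.6, 46.6 and 40.6 CPM in 8.4/bFGF (log2 fold change 0.37, SE 0.14). Tnfsf14, a TNF family ligand, was at 14.3, 21.8 and 35.0 CPM in 6.4/bFGF and at 22.3, 16.0 and 23.0 CPM in 8.4/bFGF (log2 fold change 0.21, SE 0.32, and 0.078 without 8.4/bFGF replicate 2). Both of these overlapped. Nfkbia, the inhibitor that NF-kappa B itself induces, overlapped at 151, 568 and 349 CPM in 6.4/bFGF and at 197, 311 and 299 CPM in 8.4/bFGF.

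Several markers of macrophages and neutrophils had replicates 2 and 3 of 6.4/bFGF above 8.4/bFGF and replicate 1 within its range, among them Cd14, Cd80, Nos2, Arg1, Trem1 and Clec4d. Cd14, the endotoxin co-receptor of monocytes, was at 382, 1064 and 1019 CPM in 6.4/bFGF and at 257, 481 and 395 CPM in 8.4/bFGF (log2 fold change 1.12, SE 0.41). Cd80, a costimulatory protein counted among M1 genes, was at 15.2, 26.0 and 32.5 CPM in 6.4/bFGF and at 9.62, 17.2 and 13.5 CPM in 8.4/bFGF (log2 fold change 0.87, SE 0.32). Nos2, the M1 enzyme that makes nitric oxide, was at 165, 672 and 417 CPM in 6.4/bFGF and at 78.3, 345 and 196 CPM in 8.4/bFGF (log2 fold change 1.01, SE 0.64, and 0.62 without 8.4/bFGF replicate 1). Ccr7, a further M1 marker, was at 10.8, 11.2 and 26.8 CPM in 6.4/bFGF and at 6.28, 5.89 and 11.6 CPM in 8.4/bFGF (log2 fold change 1.04, SE 0.44). The median of the 17 M1 genes was 0.47, from 0.29 without 6.4/bFGF replicate 3 to 0.66 without 6.4/bFGF replicate 1, with 2 higher and 1 lower at an unadjusted p under 0.05, against 2.70% and 4.61% of all genes. Over 20 M2 genes the median was -0.085, with 1 higher and 1 lower at that p against the same shares, and it ran from -0.56 without 6.4/bFGF replicate 3 to 0.31 without 8.4/bFGF replicate 1. Arg1, the arginase of M2 macrophages, was at 609.8, 1443 and 1841 CPM in 6.4/bFGF and at 303, 792 and 729.6 CPM in 8.4/bFGF (log2 fold change 1.09, SE 0.49), while Mrc1, the mannose receptor CD206, was at 409, 423 and 559.7 CPM in 6.4/bFGF and at 1034, 396 and 537 CPM in 8.4/bFGF (log2 fold change -0.50, SE 0.35, and -0.0081 without 8.4/bFGF replicate 1), high in 8.4/bFGF replicate 1 alone. Trem2, a lipid receptor of macrophages, was at 72.0, 62.6 and 85.8 CPM in 6.4/bFGF and at 60.1, 50.5 and 58.9 CPM in 8.4/bFGF (log2 fold change 0.38, SE 0.14) without overlap, and Gpnmb at 72.5, 47.2 and 67.2 CPM in 6.4/bFGF and at 97.3, 72.0 and 101 CPM in 8.4/bFGF (log2 fold change -0.53, SE 0.20).

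The general macrophage genes had 17 of 19 log2 fold changes above 0 (49.9% of all genes) and a median of 0.20, from 0.086 without 6.4/bFGF replicate 2 to 0.37 without 6.4/bFGF replicate 1, with 1 higher at an unadjusted p under 0.05, against 2.70% of all genes. Lyz2, the lysozyme of macrophages and neutrophils, was at 3075, 5046 and 3810.4 CPM in 6.4/bFGF and at 3404, 2406 and 3309.9 CPM in 8.4/bFGF (log2 fold change 0.38, SE 0.24). Tyrobp, an adaptor of myeloid receptors, was at 279, 429 and 543 CPM in 6.4/bFGF and at 291, 298 and 304 CPM in 8.4/bFGF (log2 fold change 0.49, SE 0.23). Of 22 neutrophil genes, 2 were higher and 1 lower at that p, against 2.70% and 4.61% of all genes. Their log2 fold changes were above 0 in 14 and below 0 in 8, with overlapping sums of the list. The median was 0.27, from -0.032 without 6.4/bFGF replicate 3 to 0.70 without 8.4/bFGF replicate 2. S100a8, a subunit of calprotectin, overlapped at 1126, 2504 and 3403 CPM in 6.4/bFGF and at 1300.3, 3189 and 1971 CPM in 8.4/bFGF. Trem1, a receptor that amplifies neutrophil responses, was at 89.6, 174 and 259 CPM in 6.4/bFGF and at 44.7, 116 and 59.9 CPM in 8.4/bFGF (log2 fold change 1.24, SE 0.47). Clec4d, a lectin receptor, was at 215, 447 and 542 CPM in 6.4/bFGF and at 172, 263 and 221 CPM in 8.4/bFGF (log2 fold change 0.87, SE 0.34). Ngp, a granule protein of young neutrophils, was at 2.35, 2.83 and 2.33 CPM in 6.4/bFGF and at 0.976, 31.4 and 3.10 CPM in 8.4/bFGF (log2 fold change -2.24, SE 1.14), where 8.4/bFGF replicate 2 alone was high, and without that library its log2 fold change was 0.31.

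Interferon-induced genes had small positive log2 fold changes. Of 79 tested, 69 had a log2 fold change above 0, against 49.9% of all genes. At an unadjusted p under 0.05, 8 were higher (2.70% of all genes) and 1 lower (4.61%), and 8 had 6.4/bFGF wholly above 8.4/bFGF (6.08%). The median was 0.24, and with 1 library left out it ran from 0.085 without 8.4/bFGF replicate 2 to 0.34 without 8.4/bFGF replicate 1, where 5 genes were higher at that p without 8.4/bFGF replicate 2. Rtp4, a chaperone of receptors, was at 58.7, 72.5 and 71.4 CPM in 6.4/bFGF and at 50.0, 29.7 and 32.5 CPM in 8.4/bFGF (log2 fold change 0.85, SE 0.21). Rsad2, the antiviral enzyme viperin, was at 31.4, 41.1 and 33.2 CPM in 6.4/bFGF and at 26.7, 18.8 and 22.5 CPM in 8.4/bFGF (log2 fold change 0.63, SE 0.17). Isg15, a ubiquitin-like modifier, was at 58.6, 63.1 and 55.0 CPM in 6.4/bFGF and at 48.4, 25.7 and 30.3 CPM in 8.4/bFGF (log2 fold change 0.76, SE 0.23). The groups did not overlap in these 3 genes. Control wounds had more of each, at 104 ± 49.2 CPM (SD, n = 3), 88.3 ± 63.0 CPM (SD, n = 3) and 143 ± 95.1 CPM (SD, n = 3) in the same order. Oas3, which makes the messenger that activates RNase L, was at 35.0, 50.5 and 59.4 CPM in 6.4/bFGF and at 36.6, 27.5 and 23.1 CPM in 8.4/bFGF (log2 fold change 0.73, SE 0.24). The interferon-inducible GTPase gene F830016B08Rik had the opposite sign, at 4.33, 2.92 and 2.19 CPM in 6.4/bFGF and at 6.99, 4.06 and 6.01 CPM in 8.4/bFGF (log2 fold change -0.85, SE 0.34). In both genes replicate 1 of 6.4/bFGF lay within the alkaline range. Gm12185 overlapped at 1.50, 0.278 and 0.759 CPM in 6.4/bFGF and at 0.738, 0.310 and 0.692 CPM in 8.4/bFGF. Rnf213 overlapped too, at 242, 247 and 198 CPM in 6.4/bFGF and at 239, 191 and 198 CPM in 8.4/bFGF. Il15, a cytokine for T and NK cells, was at 8.54, 14.5 and 22.1 CPM in 6.4/bFGF and at 7.09, 8.78 and 9.80 CPM in 8.4/bFGF (log2 fold change 0.81, SE 0.34).

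Genes of T and NK cells had a median of 0.37 over 25 genes, and those of antigen presentation 0.23 over 29, with 0 genes at an unadjusted p under 0.05 in either list. Without 1 library the T and NK median ran from -0.096 without 6.4/bFGF replicate 3 to 0.58 without 6.4/bFGF replicate 1, and was 0.11 without 8.4/bFGF replicate 2, and that of antigen presentation ran from -0.026 without 6.4/bFGF replicate 3 to 0.37 without 8.4/bFGF replicate 3. Both signs thus rested on 6.4/bFGF replicate 3. Klrk1, the NKG2D receptor, was at 5.49, 5.23 and 12.1 CPM in 6.4/bFGF and at 6.38, 1.81 and 4.32 CPM in 8.4/bFGF and Gzmb, granzyme B, at 6.76, 7.17 and 13.9 CPM in 6.4/bFGF and at 7.52, 3.62 and 6.51 CPM in 8.4/bFGF, and in both 6.4/bFGF replicate 3 was the highest library. H2-D1, a class I histocompatibility gene, was at 1904, 2086 and 2514 CPM in 6.4/bFGF and at 2024, 1481 and 1806 CPM in 8.4/bFGF. B and plasma cell, mast cell and eosinophil, hair follicle, melanocyte, Schwann cell and liver genes also had 0 members at that p, over 4, 14, 13, 6, 18 and 8 genes tested. Epx, the eosinophil peroxidase, had too few counts to be tested.

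Complement genes were lower in 3 of 22 cases and higher in 0 at an unadjusted p under 0.05, against 4.61% and 2.70% of all genes. As a list they had no common direction, with 10 log2 fold changes above 0 and 12 below. The median was -0.033, from -0.26 without 8.4/bFGF replicate 2 to 0.13 without 8.4/bFGF replicate 1. C7, a part of the membrane attack complex, was at 0.764, 1.14 and 1.04 CPM in 6.4/bFGF and at 6.12, 6.98 and 0.886 CPM in 8.4/bFGF (log2 fold change -2.25, SE 0.72), with 8.4/bFGF replicate 3 at the level of 6.4/bFGF, and Cd59a, an inhibitor of that complex, was at 11.7, 7.62 and 7.14 CPM in 6.4/bFGF and at 15.5, 13.1 and 11.7 CPM in 8.4/bFGF (log2 fold change -0.61, SE 0.23). C3, the central component, overlapped at 2139, 2178 and 2733 CPM in 6.4/bFGF and at 3882, 1747 and 2549 CPM in 8.4/bFGF.

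At the wound edge, most keratinocyte genes had log2 fold changes slightly below 0. Of 35 tested, 27 had a log2 fold change below 0, against 50.1% of all genes, and 2 were lower and 1 higher at an unadjusted p under 0.05, against 4.61% and 2.70%. The median was -0.21, from -0.35 without 6.4/bFGF replicate 1 to -0.083 without 6.4/bFGF replicate 3. Trp63, which encodes p63, the master regulator of stratified epithelium, was at 36.7, 33.9 and 33.7 CPM in 6.4/bFGF and at 45.1, 42.8 and 54.8 CPM in 8.4/bFGF (log2 fold change -0.45, SE 0.12). Dsc3, a desmosomal cadherin, was at 95.7, 84.4 and 71.2 CPM in 6.4/bFGF and at 109.7, 109.9 and 105 CPM in 8.4/bFGF (log2 fold change -0.37, SE 0.13). Itga2, the collagen-binding integrin subunit of migrating keratinocytes, was the one on the higher side, at 31.0, 37.8 and 32.3 CPM in 6.4/bFGF and at 24.2, 26.0 and 25.8 CPM in 8.4/bFGF (log2 fold change 0.41, SE 0.11). The groups did not overlap in any of these 3 genes. Krt6b, a keratin of activated epidermis, overlapped at 1029, 1128 and 999.8 CPM in 6.4/bFGF and at 1335, 1109.7 and 915 CPM in 8.4/bFGF. Of 34 genes of the cornified layer, Abca12, a lipid transporter of the skin barrier, was the only one at an unadjusted p under 0.05, at 17.7, 15.3 and 12.3 CPM in 6.4/bFGF and at 19.0, 18.1 and 28.5 CPM in 8.4/bFGF (log2 fold change -0.54, SE 0.22).

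Vessel genes were near balance, with a median of 0.050, from -0.25 without 6.4/bFGF replicate 1 to 0.30 without 6.4/bFGF replicate 3. Pecam1, the CD31 antigen that marks vessels, was at 376, 314 and 196 CPM in 6.4/bFGF and at 200.1, 279 and 349 CPM in 8.4/bFGF, with a log2 fold change of 0.096 and a 95% interval of -0.59 to 0.78. Of 26 genes 1 was at an unadjusted p under 0.05, Apln, a peptide of sprouting tip cells, at 57.4, 93.1 and 93.2 CPM in 6.4/bFGF and at 50.6, 66.4 and 46.6 CPM in 8.4/bFGF (log2 fold change 0.57, SE 0.22). Pgf, the placental growth factor, was at 11.2, 35.5 and 38.7 CPM in 6.4/bFGF and at 10.1, 12.4 and 10.3 CPM in 8.4/bFGF (log2 fold change 1.37, SE 0.43), with replicate 1 of 6.4/bFGF within the range of 8.4/bFGF. Cell division genes had 45 of 50 log2 fold changes above 0, against 49.9% of all genes, a median of 0.16, from 0.061 without 8.4/bFGF replicate 1 to 0.31 without 8.4/bFGF replicate 2, and 0 genes at an unadjusted p under 0.05, with 8 higher without 8.4/bFGF replicate 2. Top2a, the topoisomerase of dividing cells, was at 113, 115 and 98.8 CPM in 6.4/bFGF and at 85.7, 129 and 113 CPM in 8.4/bFGF, and Cdk1, the mitotic kinase, at 60.5, 72.4 and 60.8 CPM in 6.4/bFGF and at 40.1, 62.2 and 47.6 CPM in 8.4/bFGF (log2 fold change 0.37, SE 0.17, and 0.23 without 8.4/bFGF replicate 1). Respiratory chain genes had a median of -0.076 over 60, from -0.14 without 8.4/bFGF replicate 3 to 0.082 without 8.4/bFGF replicate 1, and the 2 at that p, Cox8b (-1.51) and Cox6a2 (-1.39), are the forms of striated muscle, at -0.45 and -0.38 without 8.4/bFGF replicate 1. In the list of red blood cell and heme genes 1 of 15 was at that p on the higher side (2.70% of all genes), in that of cartilage and bone 1 of 10 on the lower side, and in that of the sebaceous gland 2 of 12 on the lower side (4.61% of all genes). Hmox1, the heme oxygenase 1 that breaks heme down, was at 606, 867 and 1557 CPM in 6.4/bFGF and at 614, 526 and 529 CPM in 8.4/bFGF (log2 fold change 0.86, SE 0.33). Most of its list of red blood cell and heme genes went the other way, with 9 of 15 log2 fold changes below 0. The median of that list was -0.51, from -0.70 without 8.4/bFGF replicate 3 to 0.052 without 8.4/bFGF replicate 1. Hmga2, a chromatin protein of growing tissue, was at 10.4, 8.17 and 8.94 CPM in 6.4/bFGF and at 16.0, 9.28 and 8.97 CPM in 8.4/bFGF (log2 fold change -0.32, SE 0.26, and 0.0072 without 8.4/bFGF replicate 1).

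**Figure D4:**
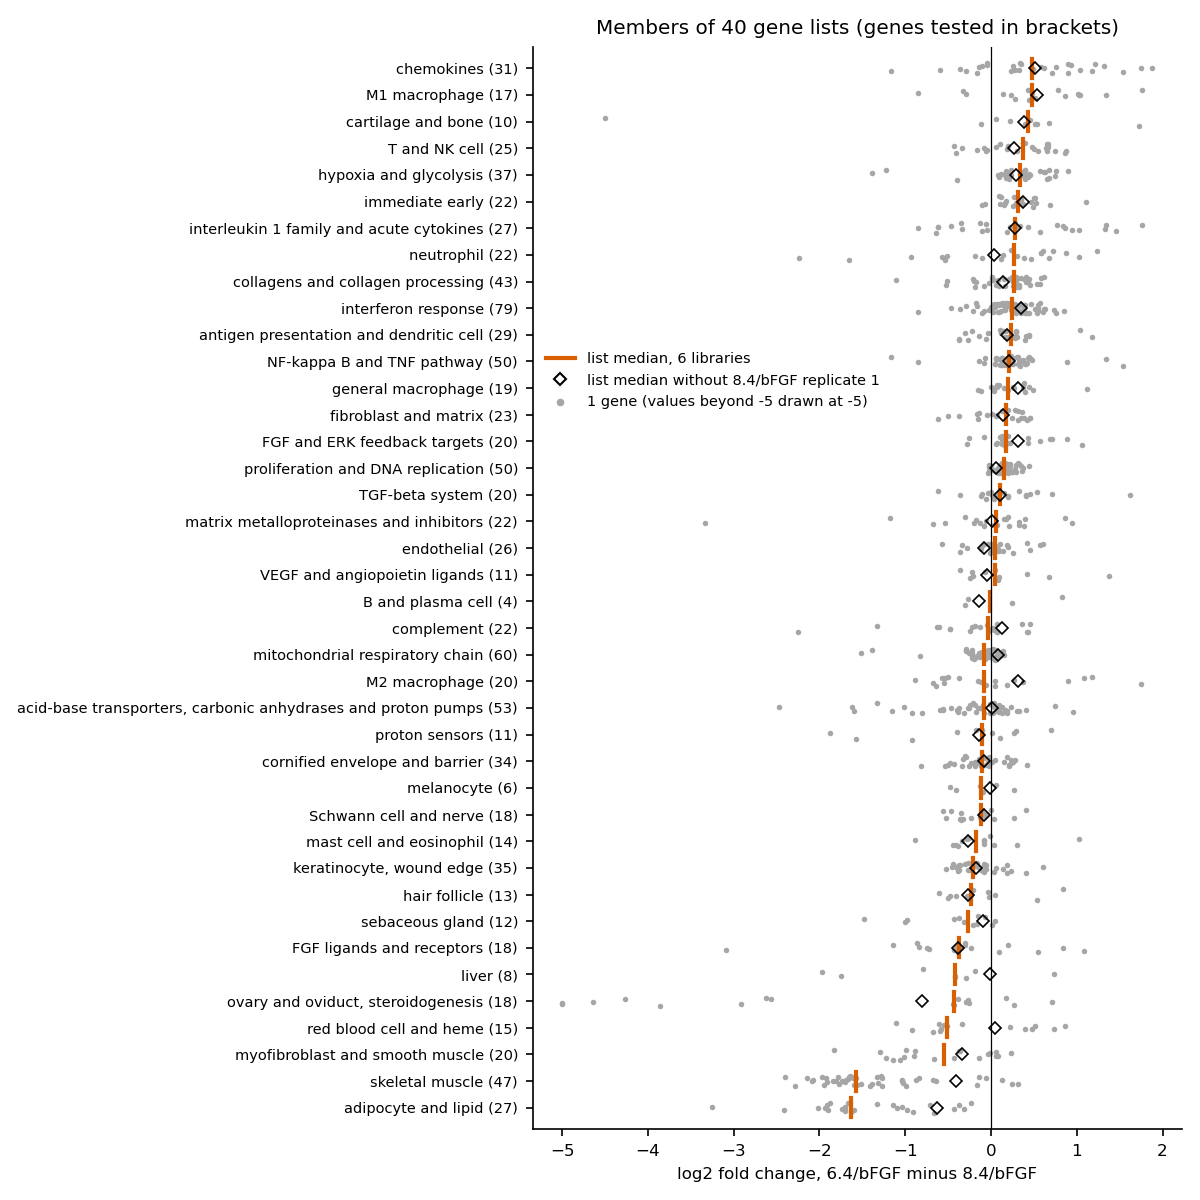
Log2 fold change between 6.4/bFGF and 8.4/bFGF (horizontal axis) of the members tested (grey points) of 40 gene lists, ordered by median (orange lines), with the median without 8.4/bFGF replicate 1 as open diamonds. The adipocyte and skeletal muscle medians of -1.64 and -1.58 shrink to -0.63 and -0.41 without that library, and every other median over 6 libraries lies within 0.55 of 0.

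The ovary genes of 8.4/bFGF replicate 2 entered the comparison as low values in 6.4/bFGF. Hsd3b1, an enzyme of progesterone synthesis, was at 398 CPM in this library, the steroid-synthesis enzymes Cyp11a1 and Akr1cl at 144 and 189 CPM, the inhibin subunit Inha at 161 CPM and the oviduct glycoprotein Ovgp1 at 80.2 CPM. Cyp11a1 was at 3.23, 3.17 and 4.41 CPM in 6.4/bFGF and at 3.03, 144 and 8.86 CPM in 8.4/bFGF, so only replicate 2 was high. The regulators Nr5a1 and Gata4, and the protease inhibitor Serpina5, were at 38.7, 25.5 and 32.5 CPM there, and Serpina5 had 0 counts in all 3 libraries of 6.4/bFGF. The granulosa cell genes Foxl2 and Amh, at 17.6 and 23.5 CPM, and the egg coat gene Zp3, at 3.77 CPM, were present in it too, and were named after their values were seen. Of the 95 genes high in this library alone, 10 passed the filter on low counts. Of 18 ovary and oviduct genes tested, 7 were lower at an unadjusted p under 0.05 with all libraries and 0 without 8.4/bFGF replicate 2, and the log2 fold change of Akr1cl, -7.90 with it, was -0.56 without it. Over all genes, the edgeR test again called 0 without this library, with 1138 at an unadjusted p under 0.05.

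The same step in pH was also made with aFGF, and the difference between the 2 steps was tested over 12 libraries. Among 15461 genes 0 (0%) passed the edgeR thresholds for the difference, the smallest adjusted p was 0.521, and 1394 (9.02%) had an unadjusted p under 0.05. The step from 8.4/aFGF to 6.4/aFGF also gave 0 edgeR calls of 14991 genes (0%), with 743 (4.96%) at an unadjusted p under 0.05. DESeq2 with its default settings called 15 genes for that step and 14 for the difference. S1pr2, a receptor for sphingosine 1-phosphate, had the smallest p of the difference, with a log2 fold change of 0.30 with bFGF and -0.44 with aFGF, a difference of 0.74 (SE 0.12, edgeR adjusted p = 0.521). With bFGF it was at 73.8, 76.3 and 78.5 CPM in 6.4/bFGF and at 59.6, 60.8 and 65.7 CPM in 8.4/bFGF, and with aFGF at 53.8, 51.4 and 49.3 CPM at pH 6.4 and at 63.4, 73.1 and 74.5 CPM at pH 8.4. The signs were thus opposite, as they were for Nrip1 (-0.55 with bFGF and 0.49 with aFGF), Arl4c (0.50 and -0.20), Rnf41, a ubiquitin ligase (0.30 and -0.34), and Tmem8b (-1.12 and 1.03), the next 4 genes.

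Of the 40 lists, that of adipocyte and lipid genes had the most members at a small p in this test, 21 of 29 at an unadjusted p under 0.05 against 9.02% of all genes, with none passing adjustment. Their median was -1.64 with bFGF (-0.63 without 8.4/bFGF replicate 1) and 0.73 with aFGF, and their summed level was 14504, 13661 and 5755 CPM in 6.4/aFGF and 8339, 4660.0 and 5150.1 CPM in 8.4/aFGF. Smooth muscle and myofibroblast genes had 7 of 20, with medians of -0.55 and 0.36. For Myh11, the difference was -1.58 (SE 0.32, edgeR adjusted p = 0.521), from -1.22 with bFGF and 0.36 with aFGF. Hmox1 was higher at pH 6.4 with bFGF (0.86) and lower with aFGF (-1.13), a difference of 1.98 (SE 0.43, edgeR adjusted p = 0.521). Skeletal muscle genes, at -1.58 and 0.16, had 0 of 47 at that p. For collagen genes the medians were 0.27 and 0.29, with 0 of 43, and for cell division genes 0.16 and 0.40, with 1 of 50.

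**Figure D5:**
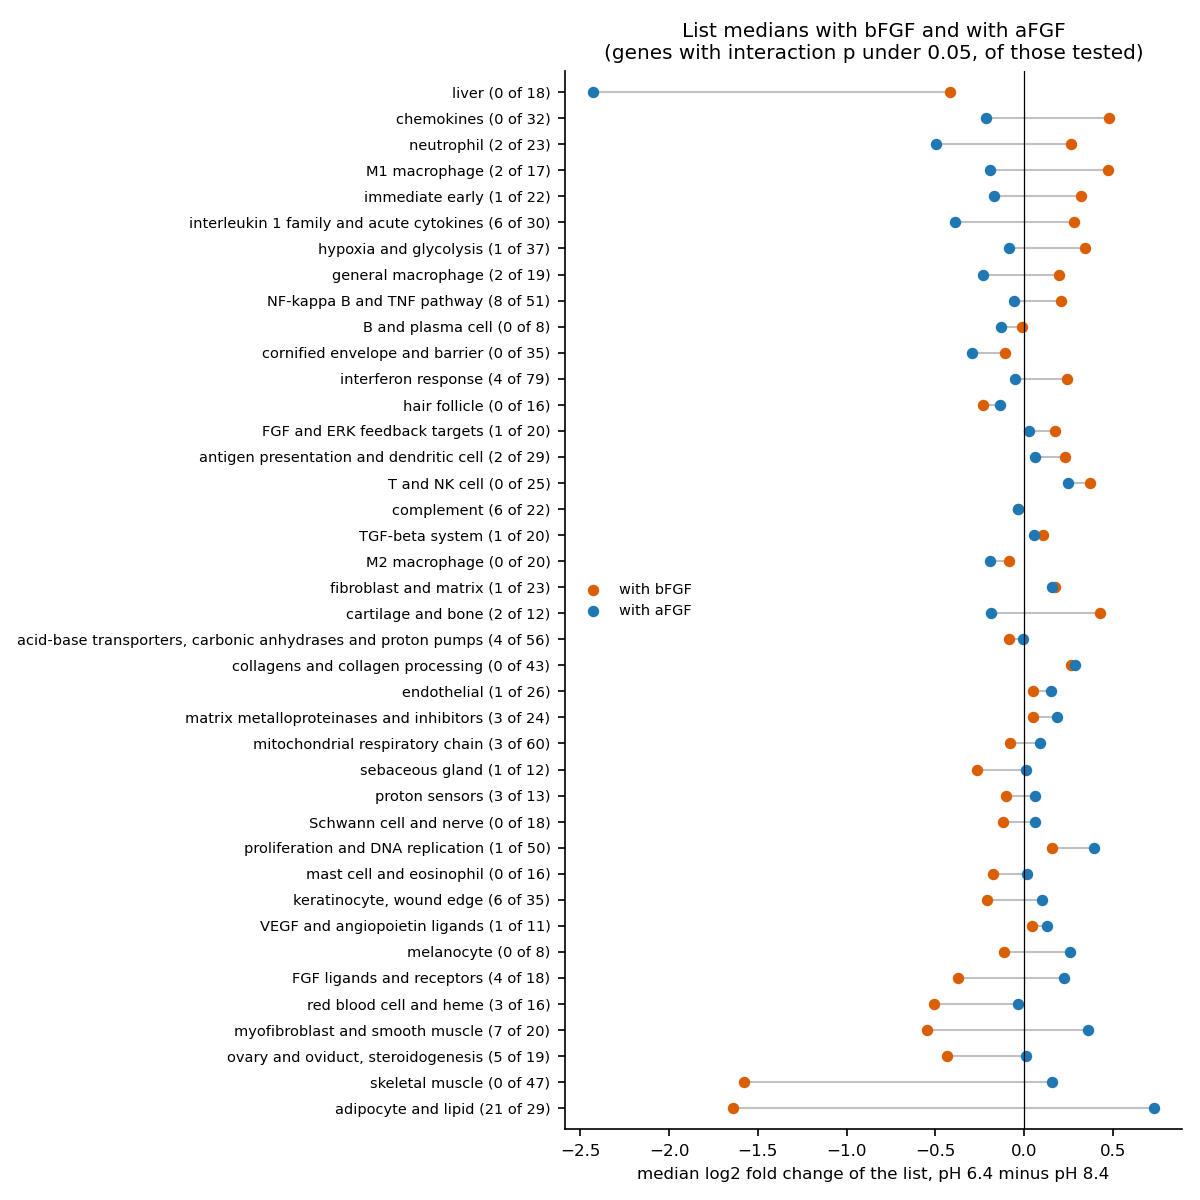
Median log2 fold change between pH 6.4 and pH 8.4 (horizontal axis) of 40 gene lists, each over the members tested, with bFGF (orange) and with aFGF (blue), ordered by the median of the difference. Adipocyte genes stand at -1.64 and 0.73, skeletal muscle genes at -1.58 and 0.16, and collagen genes at nearly the same value with both growth factors. Without 8.4/bFGF replicate 1 the bFGF medians of adipocyte and skeletal muscle genes are -0.63 and -0.41.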

How the data were processed

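Wound tissue RNA was sequenced from poly-A-selected stranded libraries (TruSeq Stranded mRNA). The authors deposited, for each of the 21 libraries, raw counts per gene and FPKM values (counts scaled to gene length and depth). The submitters' processing notes name the mouse build GRCm39, and the aligner, counter and annotation are not given in the sources used here. The FPKM values deposited by the authors served only as an alternative, on log2(FPKM + 1) and log2(FPKM + 0.1) in limma 3.58.1.

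Groups were taken from the labels. Counts of the 6 libraries were filtered with filterByExpr, normalized by TMM and tested with edgeR 4.0.16 (quasi-likelihood F test, Benjamini-Hochberg adjustment, R 4.3.3). A call needed an adjusted p under 0.05 and an absolute log2 fold change above 0.58, and the SE was the fold change divided by the square root of F. With 3 libraries against 3, an exact permutation test of 1 value cannot go below 0.1. The difference between the pH steps with bFGF and aFGF was an interaction term over 12 libraries. DESeq2 1.42.0, other filters, other normalizations and leaving out each library were alternatives, and leaving out each library under DESeq2 was added after the data were seen. A gene was called high in 1 library at 0.5 CPM or more and over 8 times the next of the 21 libraries plus 0.05 CPM. The edgeR and DESeq2 fits were tested on simulated data, where DESeq2 made calls also among counts drawn without any change and edgeR made none. Those counts were drawn gene by gene with the dispersions that edgeR estimated from the 6 libraries. They held no library that stood apart in other tissues' genes. The simulation therefore cannot decide which tool is right on the measured counts.

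The comparison and the 40 gene lists were chosen with earlier results of these data known. Genes were named by rule: up to 10 of smallest p in each direction, from each list the 2 of highest mean and up to 4 of smallest p, a fixed set of FGF, vessel, macrophage and interferon genes, the 8 highest of the genes high in 1 library and the 5 of smallest p for the difference. Same-numbered libraries of the groups did not deviate together (correlations 0.11, 0.017 and -0.072), so numbers were not used as pairs. Counts carry no molecular identifiers, so floors cover counting error only. Genome sequence was not used here. Some genes are not reported here.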

Additional observations from a re-analysis of the deposited data

How the results depend on the processing

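With edgeR and limma, 0 genes were called in the main comparison under every alternative run. These were RLE scaling, a fit without the count filter or with 10 counts required in each library, robust dispersion, all 21 libraries fitted together, calls without a fold threshold, limma on FPKM with either pseudocount or unfiltered, and leaving out each of the 6 libraries. The smallest adjusted p ran from 0.283 to 0.969 over the libraries left out, with 417 to 2102 genes at an unadjusted p under 0.05, against 0.651 and 1099. DESeq2 called 21 genes with default settings and 36 without its outlier and low-count filters. With 1 library left out, chosen after seeing the data, it called 597, 10 and 22 without replicates 1, 2 and 3 of 6.4/bFGF and 38, 160 and 195 without those of 8.4/bFGF. For the difference between bFGF and aFGF, DESeq2 called 14 genes where edgeR called 0, and for the step with aFGF it called 15 where edgeR called 0. The cause of the gap between the tools was not tested. Library numbers did not pair the samples, and a fit with the replicate block called 0 genes, with 1126 at an unadjusted p under 0.05 and a smallest adjusted p of 0.502.

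The sign of the log2 fold change held in 142 of the 163 tested genes named, under every alternative that tested the gene. It turned for the rest when a library was left out, over ranges of -0.24 to 0.24 for Acta2, -0.28 to 0.15 for Apold1, -0.44 to 0.13 for C3, -0.11 to 0.36 for Fgf2, -0.59 to 0.023 for Fgfr4, -0.16 to 0.96 for Gm12185, -0.014 to 0.51 for Gpr65, -0.46 to 0.0072 for Hmga2, -4.82 to 0.018 for Inha, -0.26 to 0.070 for Krt14, -0.22 to 0.054 for Krt6b, -0.29 to 0.31 for Mcpt4, -0.031 to 0.56 for Mmp14, -0.20 to 0.46 for Mmp2, -0.10 to 0.77 for Nfkbia, -2.79 to 0.31 for Ngp, -5.75 to 0.80 for Ovgp1, -0.12 to 0.32 for Pecam1, -0.25 to 0.53 for S100a8, -0.18 to 0.47 for Tnfsf14 and -0.16 to 0.14 for Top2a. With limma on FPKM, Pecam1 was at -0.0065 with a pseudocount of 1, filtered or not, and at -0.0068 with 0.1, and S100a8 at -0.012 in all 3 fits. With the replicate block Mcpt4 was at 0.037 and Top2a at 0.0062. A count of 3, taken as the detection floor, was worth 0.0799 to 0.0873 CPM, so genes at such levels were not measurable. With 1 library left out, the median of 18 of the 40 lists changed sign.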

Other observations

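Several smaller cell compartments were described by few genes each. In the sebaceous gland, Scd3, a desaturase of its lipid synthesis, was at 1.64, 1.42 and 1.40 CPM in 6.4/bFGF and at 8.10, 1.71 and 2.66 CPM in 8.4/bFGF (log2 fold change -1.48, SE 0.59, and -0.55 without 8.4/bFGF replicate 1), with 8.4/bFGF replicate 1 highest and no overlap. Elovl4, which elongates very long fatty acids, overlapped at 187, 133 and 165 CPM in 6.4/bFGF and at 201, 132 and 210.0 CPM in 8.4/bFGF. Hdc, the enzyme that makes histamine, was at 168, 480.0 and 635 CPM in 6.4/bFGF and at 124, 333 and 171 CPM in 8.4/bFGF, and replicates 2 and 3 of 6.4/bFGF were above every alkaline library (log2 fold change 1.03, SE 0.54). It is listed both with neutrophil genes and with mast cell and eosinophil genes. Of the latter it had the highest log2 fold change, while 11 of 14 were below 0. Their median was -0.17, from -0.34 without 8.4/bFGF replicate 2 to 0.28 without 8.4/bFGF replicate 3. The mast cell protease gene Mcpt4 overlapped at 54.6, 31.1 and 54.5 CPM in 6.4/bFGF and at 49.4, 26.2 and 65.8 CPM in 8.4/bFGF.

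The ferritin genes had positive log2 fold changes, unlike most of their list of red blood cell and heme genes (median -0.51), and cartilage genes had both signs. Ftl1, the light chain of ferritin, was at 3519.7, 3639 and 5156 CPM in 6.4/bFGF and at 2947, 2592 and 3322 CPM in 8.4/bFGF (log2 fold change 0.47, SE 0.21), and its groups did not overlap. Fth1, the heavy chain, was at 4089.8, 8559 and 8262 CPM in 6.4/bFGF and at 3942, 5217 and 5469 CPM in 8.4/bFGF (log2 fold change 0.51, SE 0.32), with 6.4/bFGF replicate 1 within the range of 8.4/bFGF. Col11a2, a fibrillar collagen chain known from cartilage, was at 3.00, 3.61 and 3.71 CPM in 6.4/bFGF and at 2.51, 2.30 and 2.41 CPM in 8.4/bFGF (log2 fold change 0.51, SE 0.23) without overlap. Cnmd, which encodes chondromodulin, was at 0.226, 0 and 0.140 CPM in 6.4/bFGF and at 0.976, 7.00 and 0.471 CPM in 8.4/bFGF (log2 fold change -4.50, SE 1.36). Its highest library was 8.4/bFGF replicate 2, the one with ovary genes, and without that library the log2 fold change was -2.52. Cnmd passed the filter on low counts largely through 8.4/bFGF.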
